A study of Homo sapiens with 13 samples.

Results

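The 35 genes described here encode aminoacyl-tRNA synthetases, 19 that work in the cytosol and 16 that work in mitochondria. They were taken from a fixed list of symbols, matched by Ensembl gene identifier, and all 35 were found among the 59204 genes of the deposited tables. Synthetases join each amino acid to its tRNA, so that ribosomes can read the genetic code, and cells keep separate sets of tRNAs for cytosolic and mitochondrial protein synthesis. Most amino acids therefore have 2 synthetase genes, and symbols ending in 2 mark the mitochondrial enzyme. GARS1 and KARS1 (for glycine and lysine) serve both compartments from 1 gene, and EPRS1 joins the glutamate and proline enzymes in 1 protein. QARS1 (for glutamine) has no mitochondrial counterpart, because mitochondria make charged glutamine tRNA by an amidation route. Many cytosolic synthetase genes are known targets of ATF4, the transcription factor of the amino acid response.

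The RNA came from K562, a cell line established from human chronic myeloid leukaemia. In 6 groups of 2 replicates each, the cells were fed for 12 h with 30 µM 4-thiouridine (4sU), a uridine analogue built into new RNA, with fresh medium every 3 h, then washed and kept in medium with 3 mM uridine for 0, 1, 2, 4, 8 or 12 h (the chase). A single library, with no replicate, came from cells given no 4sU. Whether those cells also had the changes of medium, the wash and the uridine is not given in the sources used here, so these steps and 4sU cannot be told apart. Alkylation makes 4sU read as C, and each gene has a count of all reads and a count of reads the authors call nascent, named labelled here. Reads were taken from the 3′ ends of transcripts with the QuantSeq kit. The sources used here do not say whether the 2 replicates were grown separately, so a p-value covers only the spread between these libraries, which may be technical.

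Libraries held 9004529 to 17425584 counts, and the 12 chase libraries held 1258945 to 5066616 labelled counts. Levels below are counts scaled to the library total (CPM) with trimmed-mean (TMM) factors, so a lower share of the RNA and less RNA per cell cannot be told apart. The CPM of marker genes in this paragraph are scaled to the library total without these factors. Without 4sU, 1 of 58578 counts of the 35 genes was labelled, a share of 0.00171% (95% Wilson interval 0.000301 to 0.00967%, counting error only). All 8 K562 marker genes were at 5 CPM or more in every library, with a summed level of 4062 to 12524 CPM, and 4 of the 8 were higher and 2 lower at 0 h than without 4sU. Of 7 markers of other blood cells 1, CD3D, was above 5 CPM in every library, their sum was 25.2 to 51.9 CPM, and MS4A1, CD3E and MPO were at or near 0. The spike-in RNA of Drosophila cells split the libraries by its composition: both libraries of 0, 1 and 2 h and replicate 1 of 4 h lay on one side of its first component (68.9% of the variance of 597 genes). Replicate 2 of 4 h, both libraries of 8 and 12 h and the one without 4sU lay on the other. This side runs almost with time, and adjusted p-values with it as a factor are given for each member whose call it ends.

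At the end of labelling, between 7.77% and 81.3% of a member's counts were labelled. The median member share was 49.3% for the 19 cytosolic and 61.1% for the 16 mitochondrial genes, against 57.9% over the 9652 genes tested for decay. Summed over the cytosolic genes, the labelled share was 45.2% ± 0.666 (SD, n = 2) at 0 h and 9.74% ± 0.143 at 12 h. Summed over the mitochondrial genes it was 52.9% ± 0.627 at 0 h and 4.68% ± 0.268 at 12 h. The mitochondrial sum thus started higher and ended lower than the cytosolic one, and the 2 libraries of each group lay close together. VARS1, the valine enzyme (ENSG00000204394, chr6:31777518-31795953), was 8.22 and 7.32% labelled at 0 h, and QARS1 was 11.7 and 13.3% labelled. NARS1, the asparagine enzyme (ENSG00000134440, chr18:57600656-57622213), was 78.5 and 78.6% and MARS2, the mitochondrial methionine enzyme (ENSG00000247626, chr2:197705369-197708387), 80.5 and 82.1% labelled. All gene spans are those of GENCODE 29 on GRCh38 (hg38).

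Only a T in the sequenced stretch can carry the label, and the share of T in the last 250 bases of each gene's principal transcript was set beside the labelled share at 0 h. Over the 35 members Pearson's r was 0.72 and Spearman's rho 0.70, and over 8394 tested genes they were 0.54 and 0.55. These are correlations across genes, which share the same libraries and are not independent replicates. VARS1 had 15.6% T and CARS2 (mitochondrial, cysteine) 16%, against a median of 31.6% over all genes with a principal transcript. MARS2 had 44.0% and NARS2 (mitochondrial, asparagine) 41.6%. YARS2 departed from this order, with 18.4% T and 66.5% labelled. Labelled shares are therefore compared below within a gene over time, and not between genes as a measure of turnover.

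**Figure D1:**
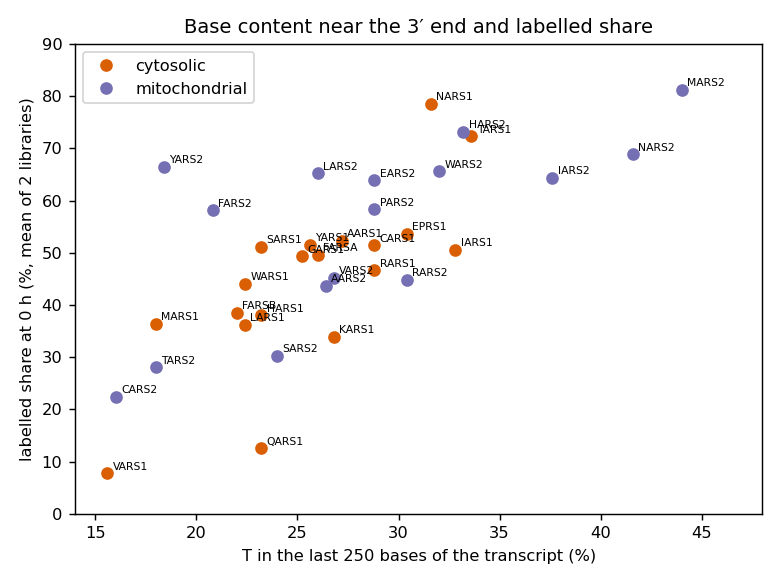
Share of T in the last 250 bases of the principal transcript (x axis, %) against the labelled share at 0 h (y axis, %, mean of 2 libraries) for the 19 cytosolic (orange) and 16 mitochondrial (purple) synthetases. VARS1 lies at the lower left with 15.6% T and 7.77% labelled, and MARS2 at the upper right with 44.0% T and 81.3% labelled.

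The chase asks how long the labelled RNA of each gene lasts. Labelled counts of 13 members fell more slowly and those of 7 fell faster than the median gene, and 15 did not pass (edgeR quasi-likelihood test of the slope over the 12 chase libraries, Benjamini-Hochberg adjusted over 9652 genes). Among all tested genes 36.3% were called slower and 36.0% faster, so the share of slower calls among members is near the background and that of faster calls is below it. Of the 19 cytosolic members 10 were slower and 2 faster, and of the 16 mitochondrial members 3 were slower and 5 faster. Faster calls were thus no more frequent among mitochondrial members than among all genes. The apparent half-life had a median of 4.96 h over the 19 cytosolic members (range 3.47 to 10.5 h) and of 3.99 h over the 16 mitochondrial ones (1.75 to 7.98 h), beside 4.30 h over all tested genes. With the spike-in side in the model 7 members were called slower and 3 faster, against 24.8% and 21.7% of all genes. Of the cytosolic members 6 were then slower and 0 faster, and of the mitochondrial ones 1 and 3. In this model 10 of the 20 calls were lost. A half-life here comes from a single exponential fitted to labelled counts, relative to the library total, over the whole chase. It need not be the time at which they reached 50% of their first value. The median of all genes was 6.26 h fitted over 0 to 4 h and 3.75 h over 2 to 12 h, so labelled counts fell more slowly early than late. The fit sees only this net change of labelled counts, so its cause cannot be told from it.

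Among the cytosolic genes KARS1 lasted longest. Its labelled level was 118 and 114 (0 h), 125 and 107 (1 h), 128 and 114 (2 h), 104 and 103 (4 h), 74.1 and 77.5 (8 h), and 54.4 and 54.2 (12 h), in CPM. Both libraries at 4 h were just below all earlier ones, both at 8 h were below those of 4 h, and both at 12 h below those of 8 h. The half-life of KARS1 (ENSG00000065427, chr16:75627474-75648643) was 10.5 h (95% interval 8.58 to 13.5 h), and its slope differed from the median by 0.14 ± 0.00916 log2 units per h (adjusted p = 6.74e-13, edgeR). VARS1 went from 18.1 and 14.9 labelled CPM at 0 h to 6.68 and 8.25 at 12 h, a half-life of 10.0 h (95% interval 7.99 to 13.5 h). FARSB, the β subunit of the phenylalanine enzyme, went from 19.4 and 19.2 to 7.76 and 6.98 CPM, a half-life of 8.82 h (95% interval 7.39 to 10.9 h). Its α subunit FARSA went from 85.4 and 75.3 to 11.4 and 10.5 CPM, with 4.43 h (95% interval 3.76 to 5.38 h), and was not called. The 2 subunits form 1 enzyme, and the intervals of their half-lives did not overlap. The other slower cytosolic calls were WARS1 (tryptophan, 8.36 h), QARS1 (6.81 h), RARS1 (arginine, 6.35 h), EPRS1 (6.19 h), GARS1 (5.45 h), MARS1 (methionine, 5.35 h) and NARS1 (4.96 h). In the model with the spike-in side, RARS1 (adjusted p = 0.136), MARS1 (0.104) and NARS1 (0.247) lost their call, as did GARS1 (edgeR).

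QARS1 carried little label at any time, with 11.7 and 13.3 (0 h), 13.8 and 12.8 (1 h), 12.9 and 14.2 (2 h), 11.2 and 12.6 (4 h), 9.03 and 9.82 (8 h), and 6.47 and 5.45 (12 h)% of its counts. The lowest library at 4 h was below every library of 0 to 2 h, and both at 12 h were the lowest of all. GARS1 (ENSG00000106105, chr7:30594681-30634033) went from 86.1 and 96.1 labelled CPM at 0 h through 62.4 and 62.3 at 4 h to 19.5 and 17.5 at 12 h, and the libraries of these 3 times did not overlap. The slope of GARS1 differed from the median by 0.05 ± 0.0105 log2 units per h (adjusted p = 1.43e-04, edgeR), and with the spike-in side in the model the adjusted p was 0.141.

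Labelled RNA of IARS1 (isoleucine) and SARS1 (serine) fell faster than the median gene. IARS1 (ENSG00000196305, chr9:92210207-92293756) had 106 and 104 (0 h), 91.0 and 96.3 (1 h), 75.9 and 71.2 (2 h), 48.6 and 36.3 (4 h), 21.5 and 18.7 (8 h), and 12.0 and 12.0 (12 h) labelled CPM. From 0 h on, both libraries of each time lay below those of the time before, and the replicates of 4 h were the farthest apart. The half-life was 3.47 h (95% interval 3.10 to 3.94 h) and the slope differed from the median by −0.034 ± 0.0124 log2 units per h (adjusted p = 0.0181, edgeR). This call changed with the scaling and with the spike-in side. Scaled to the gene's own total counts, which also dropped over the chase, IARS1 had a half-life of 6.86 h and was called slower (difference 0.13, adjusted p = 6.06e-12, edgeR). Its difference turned to 0.024 with the spike-in side and was not called (adjusted p = 0.355, edgeR). Without replicate 1 of 0 h or replicate 2 of 8 h its adjusted p was 0.0563 and 0.0583. SARS1 went from 81.2 and 80.2 CPM at 0 h to 7.01 and 9.36 at 12 h, a half-life of 3.66 h (95% interval 3.17 to 4.31 h), and was not called when scaled to its own total (adjusted p = 0.421, edgeR) or with the spike-in side in the model (0.130). HARS1 (histidine) had the next shortest cytosolic half-life, 3.93 h (95% interval 3.48 to 4.51 h), and was not called. The remaining cytosolic genes without a call were AARS1 (alanine), CARS1 (cysteine), LARS1 (leucine), TARS1 (threonine), YARS1 (tyrosine) and FARSA, with half-lives of 4.08 h (LARS1) to 4.54 h (YARS1).

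The shortest half-lives were mitochondrial. PARS2, the proline enzyme (ENSG00000162396, chr1:54756898-54764514), had 5.81 and 6.10 (0 h), 6.88 and 5.14 (1 h), 2.83 and 4.07 (2 h), 1.39 and 1.23 (4 h), 0.552 and 0.0821 (8 h), and 0 and 0 (12 h) labelled CPM. Its label was at 0 in both libraries of 12 h, which allows at most 3 counts in either, and every library from 2 h on was below those of 0 and 1 h. Its half-life was 1.75 h (95% interval 1.37 to 2.41 h) (adjusted p = 8.82e-07, edgeR). MARS2 had 10.7 and 10.7 (0 h), 10.5 and 10.8 (1 h), 6.10 and 7.03 (2 h), 2.08 and 2.72 (4 h), 0.631 and 0.575 (8 h), and 0 and 0.149 (12 h) labelled CPM, level over the first hour and lower in both libraries of each later time. Its half-life was 1.83 h (95% interval 1.53 to 2.27 h), and the slope differed from the median by −0.33 ± 0.0353 log2 units per h (adjusted p = 1.02e-08, edgeR). TARS2 (threonine) went from 7.67 and 6.21 at 0 h through 2.47 and 1.67 at 4 h to 0.0835 and 0.223 CPM at 12 h, a half-life of 2.12 h (95% interval 1.61 to 3.11 h). The call of TARS2 was lost with the spike-in side in the model (adjusted p = 0.0906, edgeR). YARS2 (tyrosine, 2.35 h) and WARS2 (tryptophan, 3.68 h) also fell faster than the median gene. The WARS2 call was near the threshold (adjusted p = 0.0367, edgeR) and was lost with its own total as offset (0.353) and with the spike-in side (0.315). It was also lost without replicate 1 of 0 h, replicate 2 of 8 h or either library of 12 h (adjusted p of 0.0538 to 0.108, edgeR).

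IARS2, the mitochondrial isoleucine enzyme (ENSG00000067704, chr1:220094102-220148041), lasted longest of the mitochondrial genes. Its labelled level was 12.5 and 12.8 (0 h), 11.2 and 9.23 (1 h), 11.7 and 8.36 (2 h), 10.0 and 7.64 (4 h), 5.60 and 5.75 (8 h), and 4.42 and 4.23 (12 h), in CPM. The libraries of 0, 4, 8 and 12 h lay in descending order with no overlap. The half-life was 7.98 h (95% interval 6.30 to 10.9 h) (adjusted p = 7.14e-07, edgeR). NARS2 went from 4.15 and 3.44 CPM at 0 h to 0.417 and 1.11 at 12 h, a half-life of 6.86 h (95% interval 4.70 to 12.7 h), on only 40 and 31 labelled counts in the libraries of 0 h. RARS2 (arginine) went from 6.95 and 6.21 to 1.92 and 2.01 CPM, a half-life of 5.42 h (95% interval 4.14 to 7.84 h). These slower calls are less firm: adjusted p was 0.0132 for NARS2 and 0.0174 for RARS2 (edgeR). It was 0.0615 and 0.0524 for NARS2 without replicate 1 of 8 h or replicate 2 of 12 h, and 0.0875 and 0.138 for RARS2 without replicate 1 or 2 of 12 h. In the fit with the spike-in side it was 0.230 for NARS2 and 0.20 for RARS2, and over 0 to 4 h the RARS2 difference turned to −0.019. Of the 8 mitochondrial genes without a call, HARS2 (histidine) was shortest at 3.60 h and SARS2 (serine) longest at 5.35 h.

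**Figure D2:**
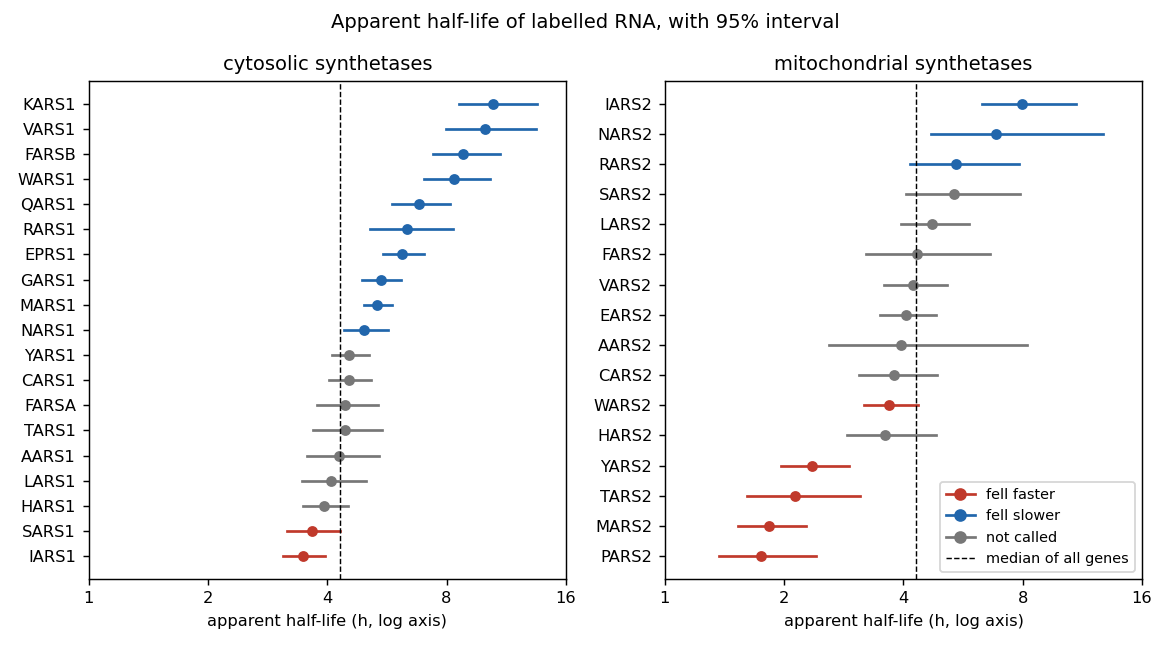
Apparent half-life of labelled RNA (x axis, h, log scale) of the 19 cytosolic (left) and 16 mitochondrial (right) synthetases, with 95% intervals as lines; the dashed line is the median of all tested genes, 4.30 h. KARS1 at 10.5 h and VARS1 at 10.0 h lie farthest right, and PARS2 at 1.75 h and MARS2 at 1.83 h farthest left.

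**Figure D3:**
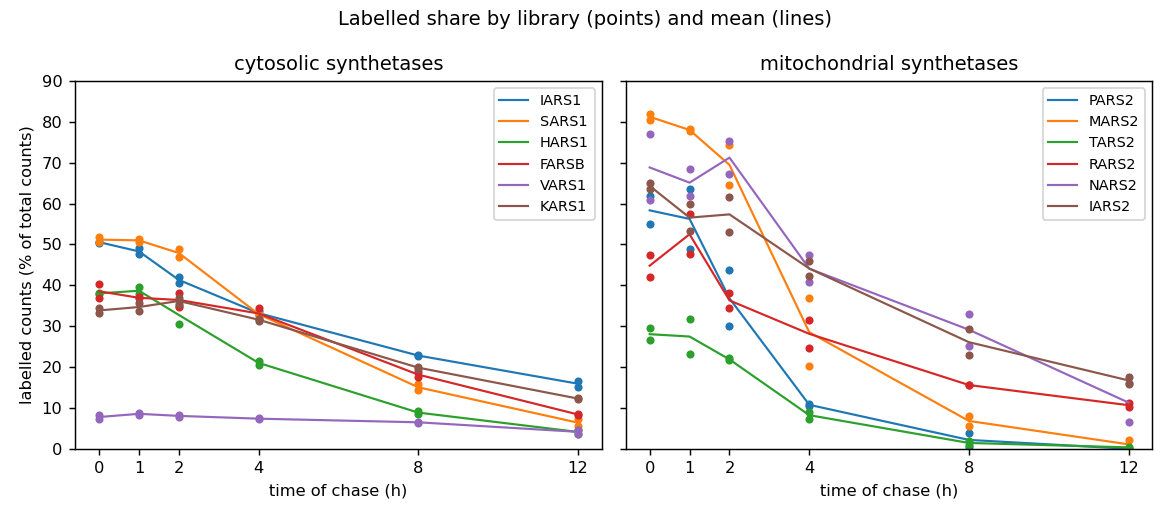
Labelled share of total counts (y axis, %) against time of chase (x axis, h) for 6 members of each compartment, those at both ends of its range of half-lives; points are the 2 libraries of each time and lines their mean. MARS2 starts highest, at 81.3%, and VARS1 lowest, at 7.77%, and PARS2 is at 0 at 12 h.

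Half-lives of the 2 genes for the same amino acid were set side by side in 16 pairs, EPRS1 serving in the pairs of glutamate and proline. For phenylalanine FARSA was set beside FARS2, and FARSB was left out of the pairs. FARSB had 8.82 h (95% interval 7.39 to 10.9 h) and FARS2 4.34 h (3.22 to 6.62 h), and these intervals did not overlap. The mitochondrial gene had the shorter half-life in 12 pairs, and in 7 of these the 95% intervals did not overlap. These 7 were EPRS1 with PARS2 (a ratio of 3.54), MARS1 with MARS2 (2.93), VARS1 with VARS2 (2.38), WARS1 with WARS2 (2.27), TARS1 with TARS2 (2.08), YARS1 with YARS2 (1.94) and EPRS1 with EARS2 (1.53). In 4 pairs the mitochondrial gene had the longer half-life, and the intervals were apart in 1, 3.47 h for IARS1 against 7.98 h for IARS2. For leucine, asparagine and serine they overlapped. The order of the isoleucine pair turned when labelled counts were scaled to each gene's own total, to 6.86 h for IARS1 and 6.06 h for IARS2. On that scale the leucine and asparagine pairs turned too, so that the mitochondrial gene had the shorter half-life. The cysteine and arginine pairs turned the other way, so that it had the longer one. The 7 pairs listed above with their ratios kept their order.

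Scaled to its own total, a gene's half-life is that of its labelled share, so a change of its total RNA during the chase enters the value. On that scale 12 cytosolic members were called slower and 2 faster, their median half-life being 5.58 h, and 3 mitochondrial members were slower and 8 faster, with a median of 3.40 h. Among all genes 39.8% were then slower and 38.3% faster. WARS1 lasted longest on this scale, with 16.8 h, ahead of VARS1 with 13.5 h and QARS1 with 11.5 h. AARS1 was called faster, at 2.73 h, and RARS1, whose total rose, went from 6.35 h to 3.57 h and lost its call (adjusted p = 0.327, edgeR).

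The end of labelling was then compared with cells that received no 4sU. Total RNA of 13 members was higher and that of 20 lower at 0 h than without 4sU, and CARS2 and RARS2 did not pass (edgeR, adjusted over 16255 genes). Of all genes 33.5% were higher and 31.8% lower, so lower calls among the 35 exceed the background share and higher calls are near it. The 1 library without 4sU was taken to vary as the replicated ones did. Of 13 cytosolic synthetases listed as ATF4 targets, 9 were higher and 4 lower, with a median log2 difference of 0.49, while all 6 other cytosolic members were lower, with a median of −0.67. Of those 6, 0 were higher also at an unadjusted p under 0.05 and by DESeq2. Of 16 mitochondrial members 4 were higher and 10 lower, with a median of −0.64, and the median of all genes was 0.063.

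Scaling to spike-in totals moved the median of all genes by 0.48 in this comparison, from 0.063 to 0.54, by 0.41 between 12 h and 0 h, and by 0.89 between 12 h and no 4sU. Differences here are therefore relative to the TMM-scaled library. On the spike-in scale 14 members were higher and 10 lower at 0 h than without 4sU (46.4% and 18.4% of all genes): 9 and 3 of the ATF4-listed genes, 0 and 3 of the other cytosolic ones, and 5 and 4 of the mitochondrial ones. With the spike-in side in the model, which here rests on the 2 libraries of 4 h, the counts were 7 and 4, 0 and 6, and 3 and 9 (26.0% and 24.2% of all genes).

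NARS1 had 159.6 CPM without 4sU and 348 and 323 at 0 h, a log2 difference of 1.09 ± 0.0812 (SE; adjusted p = 4.42e-12, edgeR). Both libraries of 0 h were far above the one without 4sU. YARS1 had 160.1 CPM without 4sU and 261 and 245 at 0 h, a difference of 0.68 ± 0.0811 (adjusted p = 3.56e-08, edgeR). Smaller positive differences from no 4sU were those of SARS1 (0.67), MARS1 (0.58), WARS1 (0.52), IARS1 (0.50), GARS1 (0.49), CARS1 (0.36) and EPRS1 (0.21). The 4 ATF4-listed genes that were lower were LARS1 (−1.12), AARS1 (−0.81), VARS1 (−0.80) and TARS1 (−0.37). Of these 13 calls, those of IARS1 and EPRS1 were lost with the spike-in side in the model (adjusted p = 0.695 and 0.128, edgeR). Without replicate 2 of 0 h CARS1 (adjusted p = 0.0739) and EPRS1 (0.285) lost their call, EPRS1 also without any 1 of 4 libraries of 1, 2 and 12 h (0.0506 to 0.0557), and TARS1 without either library of 0 h (0.0596 and 0.0518).

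RARS1 (ENSG00000113643, chr5:168486445-168519299) was the lowest of the other cytosolic members relative to no 4sU. It had 99.9 CPM without 4sU and 40.3 and 39.8 at 0 h, a log2 difference of −1.30 ± 0.0938 (adjusted p = 2.62e-12, edgeR). FARSB (−1.08), QARS1 (−0.78), FARSA (−0.56), KARS1 (−0.54) and HARS1 (−0.51) were lower too. RARS1, KARS1 and QARS1 sit with EPRS1, IARS1, LARS1 and MARS1 in the multi-synthetase complex, a large assembly of cytosolic enzymes. Its 7 enzyme genes did not move one way: 3 were higher and 4 lower than without 4sU (33.5% and 31.8% of all genes). With the spike-in side in the model 1 was higher and 4 lower (26.0% and 24.2%). In decay 5 of these 7 were slower and 1 faster (36.3% and 36.0% of all genes), with a median half-life of 6.19 h. With the spike-in side 3 were slower and 0 faster (24.8% and 21.7%), and with own totals 5 and 0 (39.8% and 38.3%).

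LARS2, the mitochondrial leucine enzyme (ENSG00000011376, chr3:45388506-45549421), had the largest deficit of the 35. It had 48.8 CPM without 4sU and 14.7 and 14.9 at 0 h, a log2 difference of −1.70 ± 0.141 (adjusted p = 3.94e-11, edgeR). TARS2 had 70.7 and then 28.8 and 21.1 CPM (−1.48), and FARS2 (phenylalanine) 36.6 and then 14.1 and 12.4 CPM (−1.44). In each of these genes both libraries of 0 h were under 50% of the level without 4sU. AARS2 (alanine, −1.26), SARS2 (−0.86), PARS2 (−0.79), NARS2 (−0.78), EARS2 (glutamate, −0.65), IARS2 (−0.62) and HARS2 (−0.36) were lower as well. The HARS2 call (adjusted p = 0.0467, edgeR) was lost with the spike-in side in the model (0.488) and without any 1 of 7 libraries (0.0524 to 0.0991), and that of NARS2 without replicate 1 of 0 h (0.0542).

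WARS2 (ENSG00000116874, chr1:119031216-119140671) was the highest of the 4 mitochondrial genes that were higher at 0 h. It had 14.4 CPM without 4sU and 31.9 and 29.3 at 0 h, a log2 difference of 1.11 ± 0.147 (adjusted p = 2.41e-07, edgeR). MARS2 had 7.53 CPM without 4sU and 13.3 and 12.98 at 0 h (0.82), a call lost with the spike-in side in the model (adjusted p = 0.382, edgeR). YARS2 (0.59) and VARS2 (valine, 0.25) were the other 2 that were higher. YARS2 lost its call with the spike-in side in the model (adjusted p = 0.0876, edgeR), VARS2 lost its own without any 1 of 6 libraries (0.0538 to 0.166), and CARS2 was called higher with the side (0.0149). By the fold of the catalytic domain, 10 of 19 class I enzymes were higher and 7 lower. Of 16 class II enzymes 3 were higher and 13 lower, against 33.5% and 31.8% of all genes. EPRS1, which joins the glutamate and proline enzymes, was counted in class I only, although PARS2, for proline alone, is in class II. On the spike-in scale 11 class I enzymes were higher and 5 lower, and 3 and 5 of class II (46.4% and 18.4% of all genes).

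Promoters of the members were searched for the letters of the amino acid response element to which ATF4 binds as a dimer with C/EBP proteins. The motifs were TGATGCAA and TGATGNAAT on either strand, which can overlap each other, in RefSeq windows (GRCh38.p14) of 250 bases before to 50 bases after the gene start. A window was found for 30 of the 35 members, not for LARS1, VARS1, YARS1, AARS2 and VARS2. Either motif was found in 1.62% of all 35116 windows. In the list of other amino acid response genes followed below, 2 of 14 genes with a window (14.3%) had it. Among members it was found in 7 of the 10 ATF4-listed genes with a window, and in 0 of 6 other cytosolic and 0 of 14 mitochondrial ones. The 7 matches are shown with their flanks because all lie in ATF4-listed genes, some of them higher and some lower at 0 h, on the strand of the gene, with the match in capitals.
IARS1 (chr9:92293692-92293721, minus strand): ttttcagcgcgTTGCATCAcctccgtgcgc
NARS1 (chr18:57621804-57621833, minus strand): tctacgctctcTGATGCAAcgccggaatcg
MARS1 (chr12:57488053-57488082, plus strand): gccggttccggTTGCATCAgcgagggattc
GARS1 (chr7:30594834-30594863, plus strand): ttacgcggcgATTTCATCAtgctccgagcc
CARS1 (chr11:3057407-3057436, minus strand): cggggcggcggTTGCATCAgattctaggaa
AARS1 (chr16:70289675-70289704, minus strand): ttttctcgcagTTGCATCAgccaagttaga
TARS1 (chr5:33440956-33440985, plus strand): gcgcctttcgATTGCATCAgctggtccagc
On the gene's strand the match of NARS1 is the motif itself and the others are its reverse complement. Of these 7 genes, 5 (IARS1, NARS1, MARS1, GARS1 and CARS1) were higher and 2 (AARS1 and TARS1) lower at 0 h than without 4sU (33.5% and 31.8% of all genes). The ATF4-listed genes with a window but no match, EPRS1, SARS1 and WARS1, were all higher too. Whether a match goes with the direction of change was not tested. Longer upstream context is given for 1 gene of each kind, ending before the RefSeq start: IARS1, which was higher, and AARS1, which was lower.
IARS1 (chr9:92293698-92293770, minus strand): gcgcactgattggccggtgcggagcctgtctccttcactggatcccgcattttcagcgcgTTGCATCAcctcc
AARS1 (chr16:70289656-70289753, minus strand): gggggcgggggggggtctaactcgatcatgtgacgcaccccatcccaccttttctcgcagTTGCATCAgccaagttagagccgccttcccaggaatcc
A match is only a run of letters and was not tested for binding, and a window without a match says nothing of the factor.

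During the chase, between 0 h and 12 h, total RNA of 15 members rose and that of 12 fell (edgeR; 27.0% and 29.1% of all genes). The share of rises among members was above that of all genes, and the share of falls was near it. This comparison shares the libraries of 0 h with the one against no 4sU, so each gene's own values are given beside the level without 4sU. Of the 13 ATF4-listed genes 2 rose and 7 fell, of the 6 other cytosolic genes 5 rose and 1 fell, and of the 16 mitochondrial genes 8 rose and 4 fell. On the spike-in scale 23 members were higher and 4 lower (40.4% and 13.7% of all genes), and with the spike-in side in the model 12 and 10 (17.9% and 19.2%). By class, 4 of 19 class I genes (EPRS1 among the 19) rose and 10 fell. Of 16 class II genes 11 rose and 2 fell. On the spike-in scale these counts were 9 and 3 in class I and 14 and 1 in class II.

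RARS1 had 40.3 and 39.8 (0 h), 42.2 and 40.3 (1 h), 44.3 and 43.2 (2 h), 62.4 and 61.8 (4 h), 80.1 and 78.3 (8 h), and 98.1 and 102 (12 h) CPM of total RNA. Its libraries of 0 to 2 h lay together, those of 4 h were above them, and those of 12 h were level with the 99.9 CPM without 4sU. The log2 difference between 12 h and 0 h was 1.26 ± 0.0817 (adjusted p = 4.98e-13, edgeR). AARS1 had 79.3 and 74.2 (0 h), 84.7 and 77.9 (1 h), 97.2 and 92.2 (2 h), 126 and 134 (4 h), 179.7 and 184 (8 h), and 180.5 and 168 (12 h) CPM, with every library from 8 h on above the 137 CPM without 4sU. Its difference between 12 h and 0 h was 1.13 ± 0.0761 (adjusted p = 1.19e-12, edgeR). FARSA (0.93), FARSB (0.75), KARS1 (0.31), CARS1 (0.22) and HARS1 (0.19) were the other cytosolic genes that rose. The last 3 lost their call with the spike-in side in the model (adjusted p = 0.0725, 0.232 and 0.353, edgeR), CARS1 also without any 1 of 3 libraries (0.0541 to 0.218) and HARS1 without any 1 of 6 (0.0521 to 0.216).

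LARS2 had 14.7 and 14.9 (0 h), 14.2 and 13.03 (1 h), 16.1 and 15.8 (2 h), 21.2 and 26.4 (4 h), 28.7 and 31.1 (8 h), and 41.8 and 40.1 (12 h) CPM of total RNA, against 48.8 without 4sU. Both libraries of 12 h were above all earlier ones and below the library without 4sU. The difference between 12 h and 0 h was 1.41 ± 0.126 (adjusted p = 2.65e-10, edgeR). AARS2 went from 4.04 and 5.99 CPM at 0 h to 11.3 and 15.2 at 12 h (1.35), with 12.2 without 4sU. FARS2 (0.88), HARS2 (0.85), TARS2 (0.80), PARS2 (0.70), SARS2 (0.62) and IARS2 (0.34) rose too. The IARS2 call (adjusted p = 0.0486, edgeR) was lost without any 1 of 4 libraries (0.0527 to 0.267).

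IARS1 fell furthest. Its total level was 209 and 206 (0 h), 191 and 196 (1 h), 180.5 and 175 (2 h), 149 and 108 (4 h), 93.1 and 82.8 (8 h), and 79.1 and 71.8 (12 h) CPM, against 149 without 4sU. Libraries of 8 and 12 h were below the level without 4sU, those of 0 to 2 h above it, and the 2 libraries of 4 h differed from each other, with replicate 1 higher. The difference between 12 h and 0 h was −1.52 ± 0.0949 (adjusted p = 2.56e-13, edgeR). NARS1 had 348 and 323 (0 h), 353 and 338 (1 h), 324 and 329.9 (2 h), 302 and 292 (4 h), 242 and 252 (8 h), and 219.5 and 214 (12 h) CPM, so that both libraries of 12 h were below all earlier ones yet above the 159.6 CPM without 4sU (−0.69 ± 0.0637, adjusted p = 5.53e-10, edgeR). WARS1 went from 149.7 and 152 CPM at 0 h to 91.5 and 103 at 12 h (−0.69). MARS2 went from 13.3 and 12.98 to 7.18 and 6.84 CPM (−0.96), a call lost with the spike-in side in the model (adjusted p = 0.229, edgeR). QARS1 (−0.63), YARS1 (−0.59), WARS2 (−0.58), SARS1 (−0.36), CARS2 (−0.34), YARS2 (−0.34), EPRS1 (−0.31) and VARS1 (−0.29) fell as well. YARS2 lost its call with the spike-in side in the model (adjusted p = 0.531, edgeR) and without any 1 of 3 libraries (0.0578 to 0.124), CARS2 without any 1 of 7 (0.0614 to 0.154), and EPRS1 without replicate 2 of 0 h (0.0828).

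**Figure D4:**
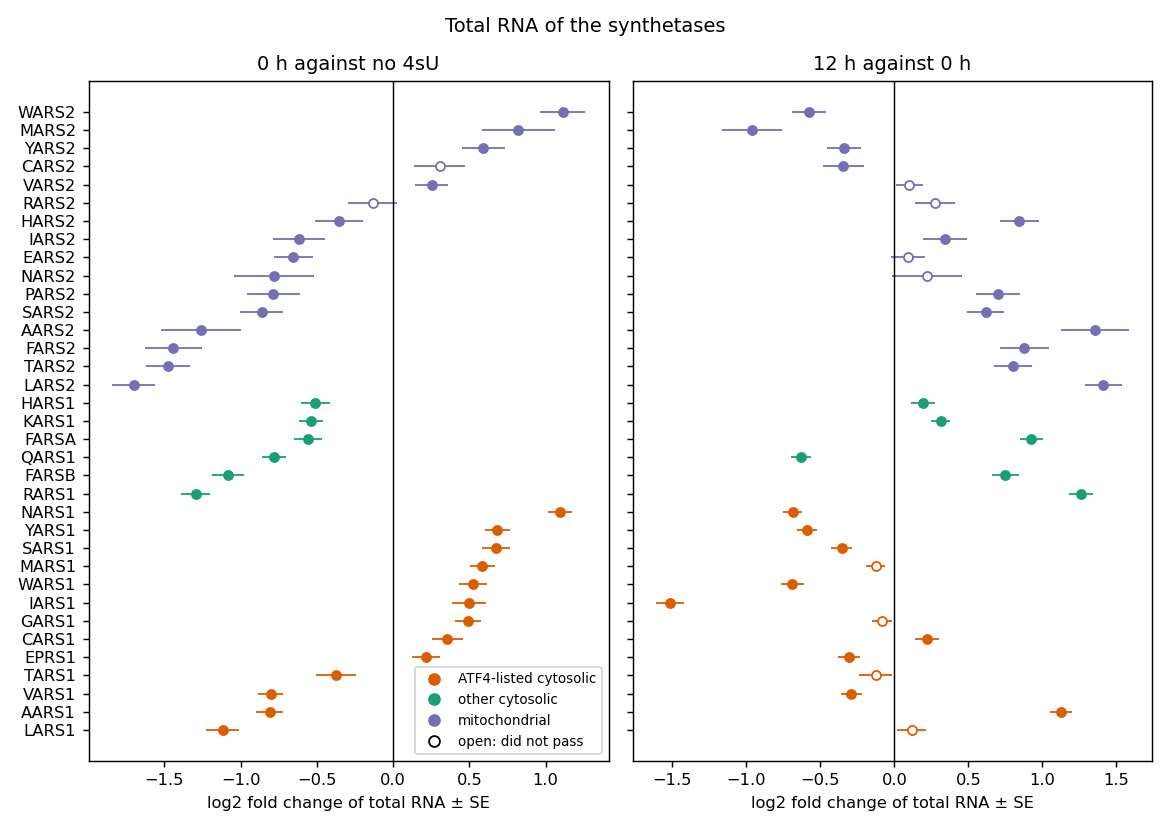
Log2 fold change of total RNA with its SE (x axis) at 0 h against no 4sU (left) and at 12 h against 0 h (right) for each synthetase (y axis), ordered within the 3 lists by the left panel; filled points passed the test. The 6 other cytosolic members (green) all lie left of 0 in the left panel, from −1.30 (RARS1) to −0.51 (HARS1).

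Unlabelled counts, the difference of total and labelled counts, were followed as a description with no test. From 0 h to 12 h the unlabelled level was higher in 31 of 35 members, with a median ratio of 1.71 over the cytosolic and 2.85 over the mitochondrial genes. Over whole libraries the labelled share went from 35.9 and 36.1% at 0 h to 10.9 and 10.6% at 12 h. The unlabelled part of a library thus rises on this scale, and a gene's ratio also depends on its labelled share at 0 h. No ratio over all genes was computed, so these values do not set the members or the compartments apart. LARS2 had 5.08 and 5.21 unlabelled CPM at 0 h and 40.2 and 38.4 at 12 h, a ratio of 7.64. HARS2 had 3.53 and 3.66 and 24.5 and 24.2 CPM, a ratio of 6.77. RARS1 had 21.7 and 21.1 and 92.5 and 97.3 CPM, a ratio of 4.44. In all 3 the libraries of the 2 times lay far apart. The 4 members whose unlabelled level was lower at 12 h were IARS1 (a ratio of 0.619), QARS1 (0.721), WARS1 (0.835) and VARS1 (0.882). IARS1 held 103 and 102 (0 h), 100.3 and 100.1 (1 h), 105 and 104 (2 h), 100.2 and 71.3 (4 h), 71.7 and 64.1 (8 h), and 67.1 and 59.8 (12 h) unlabelled CPM, flat over the first 2 h and lower from 8 h on.

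**Figure D5:**
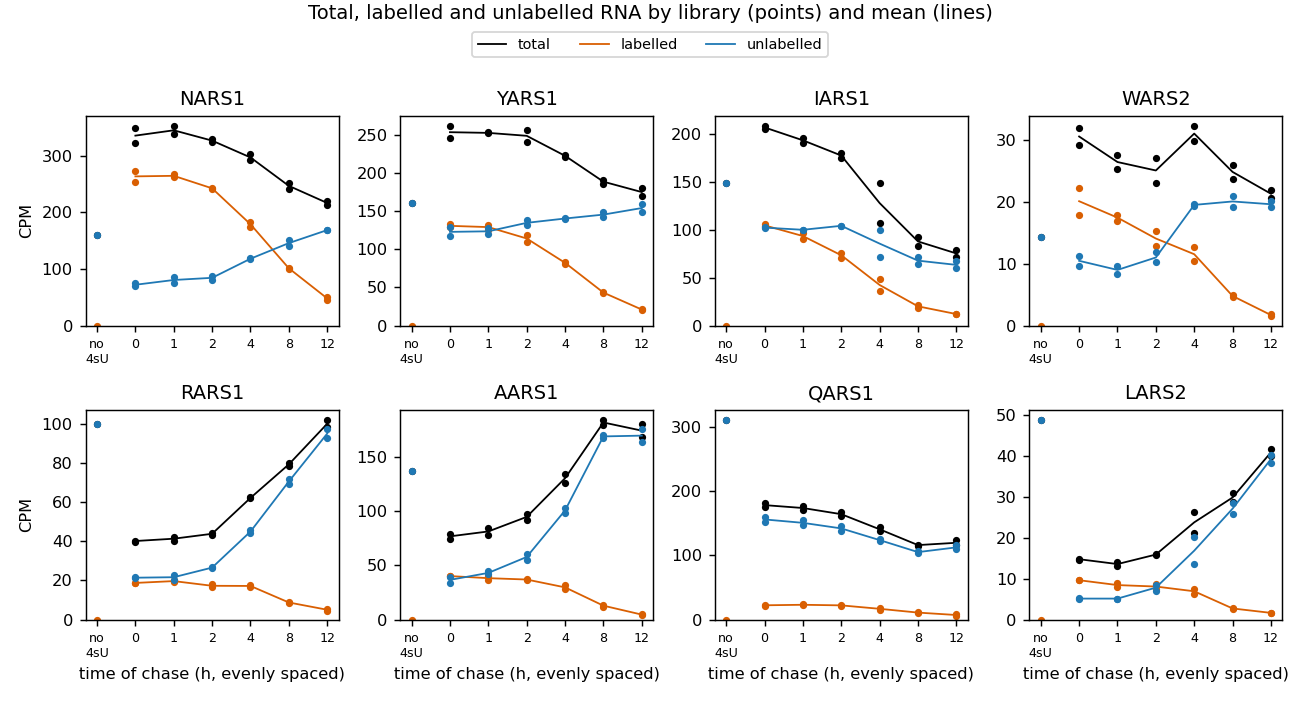
Total (black), labelled (orange) and unlabelled (blue) RNA in CPM (y axis) without 4sU and at each time of chase (x axis, h, evenly spaced) for 8 synthetases; points are libraries and lines their means. Without 4sU the total and unlabelled points coincide. In RARS1, AARS1 and LARS2 the unlabelled line climbs to 92.5 and 97.3, 176 and 164 and 40.2 and 38.4 CPM at 12 h, while in IARS1 it ends at 67.1 and 59.8 CPM.

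At the end of the chase 10 members were higher and 11 lower than without 4sU (edgeR; 26.2% and 24.9% of all genes, near the members' shares), with the same single library as reference. CARS1 was highest, with 68.4 CPM without 4sU and 104 and 105 at 12 h, a log2 difference of 0.58 ± 0.0994 (adjusted p = 2.21e-05, edgeR). WARS2 (0.53), HARS2 (0.49) and MARS1 (0.46) followed. QARS1 (ENSG00000172053, chr3:49095932-49105135) was lowest, with 311 CPM without 4sU and 124 and 116 at 12 h (−1.41 ± 0.0781, adjusted p = 2.73e-14, edgeR), and had 182 and 175 CPM at 0 h. VARS1 had 375 CPM without 4sU and 181 and 179 at 12 h (−1.09), and LARS1 94.7 and 52.3 and 44.7 CPM (adjusted p = 1.01e-08, edgeR). IARS1 differed by −1.02, having been higher at 0 h. On the spike-in scale 27 members were higher and 1, QARS1, lower (62.3% and 5.52% of all genes), and FARSB, HARS1, KARS1 and TARS1 turned from lower to higher. FARSB (adjusted p = 0.0501) and FARS2 (0.0940) lost their lower call without replicate 2 of 12 h, and KARS1 without either library of 12 h (0.0512 and 0.0806, edgeR). With the spike-in side in the model LARS2 (0.0331) and NARS2 (0.0359) were called lower as well.

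Over the first 2 h of the chase 1 member passed in total RNA. AARS1 rose, from 79.3 and 74.2 CPM at 0 h to 97.2 and 92.2 at 2 h, with both libraries of 2 h above both of 0 h (log2 difference 0.27 ± 0.0775, adjusted p = 0.0304, edgeR), and 0 members fell, against 5.25% and 1.73% of all genes. At an unadjusted p under 0.05, 3 members were higher and 6 lower, and DESeq2 called 0 in either direction. The AARS1 call was lost by DESeq2 (adjusted p = 0.0589) and without any 1 of the 4 libraries of 0 and 2 h (adjusted p of 0.0643 to 0.165, edgeR). With the spike-in side in the model IARS1 was also called lower (0.0113) and RARS2 higher (0.0455).

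The amino acid response itself, its regulators and targets outside the synthetases, was followed with a list of 15 genes. At 0 h 10 of the 14 tested were higher and 1 lower than without 4sU (33.5% and 31.8% of all genes), with a median log2 difference of 1.33. These included CHAC1, an enzyme that degrades glutathione (3.08), ATF3, a transcription factor (2.99), ASNS, asparagine synthetase (2.12), SLC3A2, the heavy chain of amino acid transporters (2.31), and ATF4 itself (1.11). PHGDH, the first enzyme of serine synthesis, was lower (−0.82), a call lost with the spike-in side in the model (adjusted p = 0.388, edgeR). Between 0 h and 12 h 0 of 14 rose and 12 fell, against 27.0% and 29.1% of all genes (edgeR). The count of rises was 0 also at an unadjusted p under 0.05 and by DESeq2. At 2 h 4 were higher, among them ATF4 (0.26), and 1 lower than at 0 h (5.25% and 1.73% of all genes). At 12 h 4 were higher and 4 lower than without 4sU (26.2% and 24.9% of all genes). Labelled RNA of 9 of the 13 tested fell faster than the median gene, with CHAC1 shortest at 0.874 h. That of 3 fell more slowly, among them ASNS at 10.8 h. Of all genes 36.0% were faster and 36.3% slower. The list's median half-life was 2.28 h, shorter than the 4.54 h of the 13 ATF4-listed synthetases. The lists are descriptions, and the difference between them was not tested.

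Partners of the synthetases were listed as 13 genes for scaffolds, proofreading and amidation. In decay 2 of 12 tested were slower (DTD1, a proofreading enzyme, 6.06 h, and GATB, 9.28 h). Another 2 were faster (GATC, 3.51 h, and TRNT1, which adds the CCA end to tRNAs, 3.47 h). Both shares were below those of all genes, 36.3% slower and 36.0% faster. With the spike-in side in the model GATC and TRNT1 lost their call (adjusted p = 0.0593 and 0.401, edgeR). GATB and GATC are 2 subunits of the enzyme that makes mitochondrial glutamine tRNA. At 0 h 5 of 13 were higher than without 4sU and 6 lower, against 33.5% and 31.8% of all genes. The scaffold proteins of the multi-synthetase complex were at 1.31 (AIMP1) and −1.70 (AIMP2), and EEF1E1, another scaffold protein, at 0.00697 and not called. Of 9 mitochondrial translation factors 4 were higher and 3 lower at 0 h than without 4sU, and 3 were slower and 3 faster in decay. The shares of all genes beside these are the ones given for the partners. TUFM, the mitochondrial elongation factor Tu, was slowest at 15.4 h and MTIF3, an initiation factor, fastest at 2.72 h. Between 0 and 12 h 3 of 13 partners rose and 5 fell, and 4 of 9 translation factors rose and 4 fell (27.0% and 29.1% of all genes).

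The count of some members is uncertain, because the use of strand in counting is not given in the sources used here and the reads come from 3′ ends. In 5 members an exon of another gene lies within 1000 bases of the 3′ end: WDR55 for HARS1, DDIT3 for MARS1 and AL157871.4 for WARS1 on the opposite strand, and ZMAT2 for HARS2 and AC011455.2 for SARS2 on the same strand. DDIT3, a regulator of the amino acid response, had a half-life of 1.94 h against 5.35 h for MARS1 and did not pass at 0 h against no 4sU (0.20). HARS1 and HARS2 lie head to head and share exon bases, and VARS2 shares exon bases with GTF2H4 on the same strand. A pseudogene named after the gene exists for 11 members, with 3 for KARS1, and near-identical copies can take reads.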

How the data were processed

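The 13 libraries were K562 QuantSeq 3′ RNA libraries after alkylation (SLAM-seq), grouped by their titles into 6 chase times and 1 group without 4sU. The authors deposited 3 tables of raw counts per gene: all human reads, human reads they call nascent, and Drosophila spike-in reads. The build was hg38, and among the tools were Trim Galore 0.6.5 and bcl2fastq 2.17.1.14, per the submitters' processing notes. Not given in the sources used here are the aligner, annotation, strand setting and number of conversions behind a nascent read. Every column was matched to a library by name, and 55381 of 59204 identifiers had an entry in a table of gene names.

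The test of decay, in R 4.3.3 with the quasi-likelihood method of edgeR 4.0.16 (two-sided, threshold 0.05 after Benjamini-Hochberg adjustment), was of the slope of labelled counts on hours minus the median slope, −0.24 log2 per h. The offset was the library's total size after TMM, over genes with a mean of 5 CPM and 100 labelled counts. All 35 members passed these filters. Half-lives came from a quasi-Poisson exponential with a background term, the labelled share in the library without 4sU (scipy 1.17.1, numpy 2.4.6 and pandas 2.3.3 under Python 3.11.15; figures with matplotlib 3.10.9). Total counts were fitted with edgeR (filterByExpr, TMM) over 7 groups that share 1 spread. Replicates of a time differed by more than sampling noise (chi-square per degree of freedom 3.14 to 6.16). Both count tests were tested on simulated data.

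Alternatives were DESeq2 1.42.0, spike-in totals, own totals, other filters and time windows, a replicate block, the spike-in side and each library left out. The members and lists were chosen with earlier results of these data known. Values per library are given for the 3 members at each end of the half-lives in both compartments, the up to 4 largest rises and falls of each comparison among members that passed, GARS1, KARS1 and QARS1. Values of YARS2, SARS1 and FARSA beyond their calls and the unlabelled counts were added after values were seen.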

Additional observations from a re-analysis of the deposited data

How the results depend on the processing

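Of 781 values of named members under the alternatives, 746 kept their direction and their side of the threshold, 29 lost the call and 6 turned. These values are of the members named by rule for each comparison. All 6 among them that turned were slopes relative to the median gene: IARS1 to 0.13 with its own total as offset, 0.0040 over 2 to 12 h and 0.024 with the spike-in side in the model, SARS1 to 0.011 with its own total, HARS1 to 0.00088 over 2 to 12 h, and RARS2 to −0.019 over 0 to 4 h. Among called members outside the rule, the slopes of RARS1 and WARS2 turned with own totals, and spike-in totals turned total RNA of 2 members at 0 h against no 4sU (HARS2 and TARS1), 5 at 12 h against 0 h (CARS2, EPRS1, SARS1, VARS1 and YARS2) and 7 at 12 h against no 4sU. Of these 7, FARSB, HARS1, KARS1 and TARS1 were called in the other direction, and EARS2, FARS2 and TARS2 were not called. The cause was not tested.

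With the spike-in side in the model 7 members were slower and 3 faster in decay, and 2 were higher and 1 lower at 2 h than at 0 h. Over 0 to 4 h, with fewer libraries, 3 members were slower. At 2 h against 0 h, DESeq2 called 0 higher, a filter of a mean of 5 CPM 2 lower, and the replicate block 2 higher and 1 lower. With spike-in totals as library sizes 23 members were higher and 4 lower at 12 h than at 0 h, 10 were lower at 0 h than without 4sU (3 other cytosolic and 4 mitochondrial), and 27 were higher and 1 lower at 12 h than without 4sU. The median half-life of cytosolic members was 5.58 h with own totals, 5.93 h with spike-in totals, 7.07 h over 0 to 4 h and 4.47 h over 2 to 12 h. That of mitochondrial members was 3.40 h, 4.60 h, 6.33 h and 3.62 h in the same order, and stayed below the cytosolic one in each.

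With each of the 12 chase libraries left out in turn (the library without 4sU, the only one of its group, was not), 12 to 13 members were slower and 5 to 7 faster in decay, with medians of 4.79 to 5.24 h (cytosolic) and 3.85 to 4.25 h (mitochondrial). At 2 h against 0 h 0 to 2 members were higher and 0 to 2 lower, and at 12 h against 0 h 12 to 15 and 9 to 12. At 0 h against no 4sU 11 to 13 were higher and 17 to 20 lower (7 to 9 ATF4-listed higher, 6 other cytosolic lower, 8 to 10 mitochondrial lower), and at 12 h against no 4sU 10 were higher and 8 to 13 lower. The 3 counts by list were chosen as results after the data were seen.

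Replicates share only a number: the correlation of their deviations from the group means over 15 pairs of times was −0.142 to 0.402 (median 0.036), with 3 above 0.1. The replicate block changed no count of members by more than 1.5 times except the 2 at 2 h against 0 h given above. Mitochondrial genes rest on few counts, such as 2 labelled counts for HARS2 in 1 library of 12 h, which limits their precision.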
